A study of Oryctolagus cuniculus with 12 samples.

Results

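Homeobox and related patterning factors are DNA-binding proteins that give embryonic tissues their position and shape. Of the 14621 genes in the deposited count table, 9813 carried a symbol, and 40 of those had one from the families chosen here. The members were all genes whose deposited symbol belongs to the HOX, DLX, MSX, ALX, PRRX, PITX, BARX, sine oculis (SIX2), LHX, LMX1, MEIS, PBX, IRX, TBX, PAX (other than PAX5), HAND, TWIST, NKX, SATB, SALL, EMX or OTX families, whatever their values. RNA had been sequenced in bulk from the mandibular condyle of the rabbit (Oryctolagus cuniculus) temporomandibular joint, the joint of the jaw, in 12 libraries, 3 in each of 4 groups. The groups were condylar cartilage cells from joints with osteoarthritis (OA), condylar cartilage cells from control joints, superficial zone cells from OA joints and superficial zone cells from control joints. The superficial zone is the fibrous cover of the condyle, and the condylar cartilage lies beneath it. OA had been induced by surgery, in which a 2.5 mm punch was taken out of the articular disc while its attachments were kept. All animals were labelled wild type (WT). Any operation on the control joints, the age of the animals and the time after surgery are not given in the sources used here. The sample titles call the libraries of each group biological replicates, but no source used here ties a replicate to an animal. Every p-value here therefore reflects the spread among these samples, which may be technical.

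The lower jaw is built by cranial neural crest cells of the mandibular arch, and the identity of that arch is set by overlapping domains of these factors. In mouse, DLX5 and DLX6 give the arch its lower-jaw identity and PRRX1, PRRX2 and ALX4 act in craniofacial mesenchyme. PBX and MEIS proteins (the TALE class) bind DNA together with other homeodomain proteins, and HOX genes mark position along the trunk and are largely off in the mandibular arch. How these genes stand in the condyle, and whether they differ between its layers or in OA, is what the comparisons here address.

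Library totals ranged from 7326255 to 16769536 estimated counts. In OA condylar cartilage, libraries 1 and 2 varied by only 3.68 times counting noise, and in the OA superficial zone libraries 2 and 3 varied by only 2.11 times, against 75.6 to 660 times in the other pairs within groups. Each of these pairs was summed and counted as 1 sample, although the titles label the libraries as biological replicates. There were thus 2 samples per OA group and 3 per control group. PRG4, the lubricin gene that marks the joint surface, was at 18.9 to 121 CPM (counts per 1000000 after TMM scaling, which allows for differences in library composition) in the 6 condylar cartilage libraries and at 167 to 454 CPM in the 6 superficial zone libraries. PRG4 was 1 of 12 listed genes of the superficial zone and fibrous tissue, and the 10 measured did not follow the labels when summed. The sum was 135781 to 168293 CPM in OA and 179729 to 374573 CPM in control condylar cartilage. In the superficial zone it was 96422 to 370712 CPM in OA and 105143 to 129668 CPM in control. COL2A1, the main collagen of cartilage, did not follow the labels in 2 libraries. It was at 51233 CPM in OA superficial zone 1, against 2511 and 2583 CPM in the other libraries of that group, and at 935 CPM in control condylar cartilage 3, against 42754 and 56682 CPM in the others of that group. Calls of the members described here that change when both of these libraries are left out are given with and without them. Without them the OA superficial zone keeps 1 sample, the summed pair, which was taken to vary like the other groups.

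PRRX1 (ENSOCUG00000012272), a paired-related homeodomain factor of limb and jaw mesenchyme, was abundant in every group. In TPM (transcripts per 1000000, as deposited), the scale on which genes can be compared per length, it averaged 293.71 over the 12 libraries, and it took 9.56% to 19.8% of the members' summed TPM in the condylar cartilage libraries. In the superficial zone it took 10.6% in OA superficial zone 1 and 28.2% to 33.2% in the other libraries.

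Other abundant members were DLX5 with a mean of 96.33 TPM, DLX3 with 86.46, SIX2 with 79.61, TBX2 with 73.12, BARX1 with 51.21 and TBX18 with 36.06. Of the 40 members, 19 had a mean of 10 TPM or more, 18 lay between 1 and 10 TPM, and 3 lay under 1 TPM. The lowest 3 were IRX1 at 0.72, HOXD1 at 0.61 and HOXA5 at 0.48 TPM. The heatmap of levels shows 36 of the members by library, with DLX5, DLX3 and TBX2 among the brighter rows in every group.

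**Figure D1:**
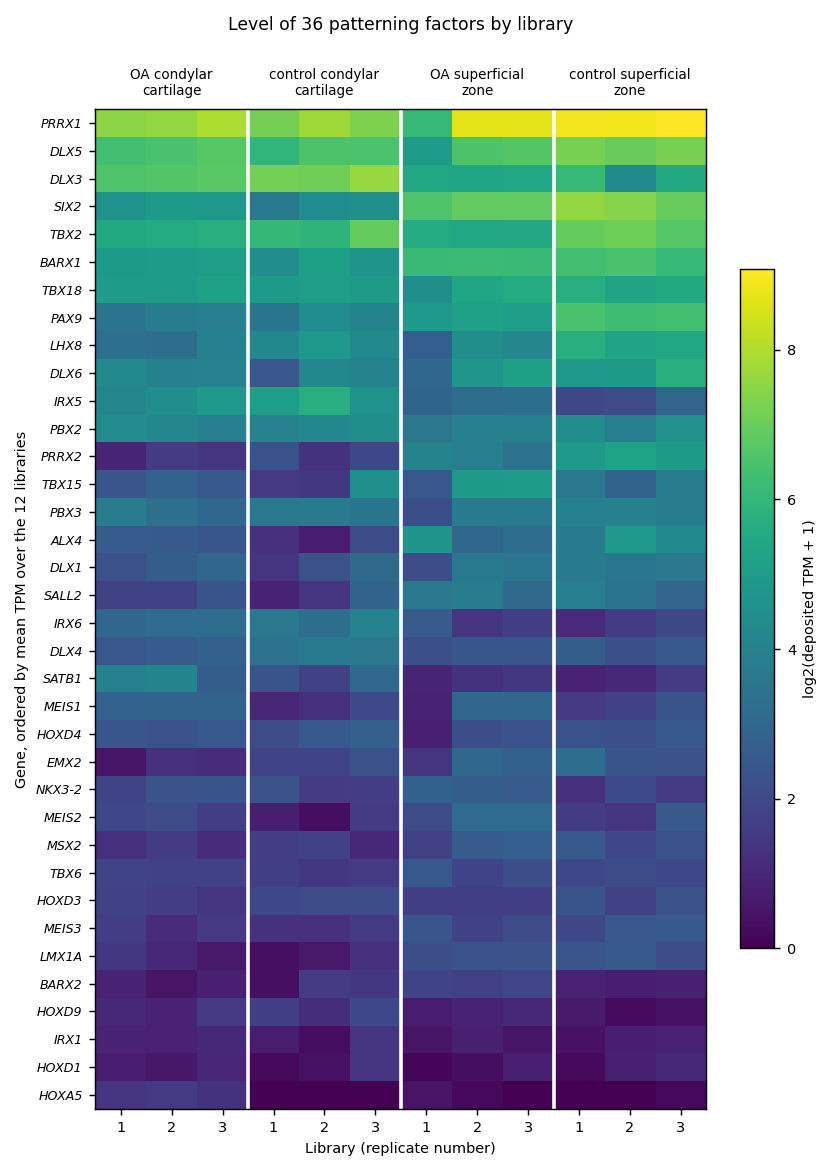
Level of 36 patterning factors (rows, ordered by mean TPM) in the 12 libraries (columns, replicates 1 to 3 in each group), coloured by log2 of the deposited TPM plus 1. PRRX1 is brightest in the superficial zone, except in OA superficial zone 1, while the HOX genes lie in the lower part of the plot.

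The first comparison set condylar cartilage against superficial zone, averaged over OA and control joints. Of the 38 members that could be tested (IRX1 and HOXD1 did not pass the minimum count), 16 passed the test, or 42.1%, against 17.8% of all 14438 genes tested (edgeR, adjusted p under 0.05). Higher in the condylar cartilage were 4, among them SATB1, IRX5 and DLX3, and 12 were lower, among them SIX2, PRRX1, PRRX2, ALX4, BARX1, EMX2, PAX9, LMX1A, SALL2, MEIS3 and MSX2. Among all genes 6.84% were higher and 10.9% were lower. The median log2 fold change was -0.77 over the 38 members and 0.03 over all genes tested, and 30 of the 38 were negative. The median size of the log2 fold change, whatever its sign, was 1.18 for the members and 0.51 for all genes. In 16 members the 6 libraries of each zone did not overlap, 3 with condylar cartilage above (7.89%, against 4.93% of all genes) and 13 with it below (34.2%, against 7.58%). The 9 osteoblast and osteocyte markers summed to 3657 to 12098 CPM in the condylar cartilage and to 420 to 1669 CPM in the superficial zone, and their part in the higher members was not tested. Markers of mural and smooth muscle cells, 8 of 9 measured, summed to 534 to 1370.3 CPM in the condylar cartilage and to 1009 to 2597 CPM in the superficial zone, and their part in the lower members was not tested. In bulk samples such as these, fewer cells of a type and less RNA per cell cannot be told apart.

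SATB1, known best for organising chromatin in T cells, was higher in the condylar cartilage. It was at 16.2, 17.4 and 6.37 CPM in OA condylar cartilage and at 5.32, 2.78 and 8.97 CPM in control condylar cartilage, against 0.891 to 2.37 CPM in the 6 superficial zone libraries. The zones did not overlap, and the log2 fold change was 2.13 ± 0.44 (± SE; edgeR adjusted p = 0.0075; 0.079 in limma-voom with sample weights). SALL2, a zinc finger factor, went the other way, with 1.46 to 6.39 CPM in the condylar cartilage and 10.9 to 22.4 CPM in the superficial zone (log2 fold change -2.18 ± 0.40, adjusted p = 0.0041).

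SIX2 (ENSOCUG00000027205), which keeps progenitor cells undifferentiated in the mouse kidney, was at 36.7, 42.4 and 42.0 CPM in OA condylar cartilage and at 19.8, 27.0 and 32.4 CPM in control condylar cartilage. The superficial zone held 285, 196 and 188 CPM in OA and 251, 269 and 164 CPM in control. Its log2 fold change of -2.83 ± 0.26 had the smallest adjusted p of the members (1.9e-04), and the zones were apart in every library.

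The mesenchymal factors PRRX1, PRRX2 and ALX4 were all lower in the condylar cartilage. PRRX2 (ENSOCUG00000001724), whose loss together with PRRX1 removes parts of the lower jaw in mouse, was at 0.391, 0.885 and 0.746 CPM in OA condylar cartilage and at 1.98, 0.659 and 1.35 CPM in control condylar cartilage. The superficial zone libraries held more, with 15.0, 7.35 and 5.39 CPM in OA and 12.5, 20.1 and 13.3 CPM in control. The log2 fold change of -3.75 ± 0.41 (adjusted p = 2.8e-04) was the largest fall among the members. ALX4 (ENSOCUG00000007369), a factor of the skull vault and face, was at 0.293 to 2.34 CPM in the condylar cartilage and at 4.14 to 24.6 CPM in the superficial zone (-3.14 ± 0.58, adjusted p = 0.0040). PRRX1, which was far more abundant, was at 365 to 574 CPM in the condylar cartilage. It was at 394 CPM in OA superficial zone 1 and at 1068 to 1178 CPM in the other 5 superficial zone libraries (-1.02 ± 0.30, adjusted p = 0.035).

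PAX9 (ENSOCUG00000014321), needed for teeth and palate in mouse, was at 8.87, 7.19 and 10.2 CPM in OA condylar cartilage and at 8.82, 13.8 and 8.53 CPM in control condylar cartilage. In the superficial zone it was at 23.6, 24.2 and 25.0 CPM in OA and at 42.2, 56.4 and 45.3 CPM in control. All superficial zone libraries lay above all condylar cartilage libraries (log2 fold change -1.80 ± 0.23, adjusted p = 5.9e-04). BARX1 (ENSOCUG00000006551), which marks the molar-forming part of the mouse jaw, was at 21.0 to 33.0 CPM in the condylar cartilage and at 58.3 to 115 CPM in the superficial zone (-1.57 ± 0.23, adjusted p = 0.0013). LMX1A (ENSOCUG00000005509), a LIM homeobox factor known from the embryonic brain, was at 0.304 to 1.40 CPM and at 3.04 to 6.21 CPM in these zones (-2.56 ± 0.47, adjusted p = 0.0041). The other LIM member, LHX8, which acts in the palate and forebrain of the mouse, was at 8.47 to 22.0 CPM in the condylar cartilage and at 8.56 to 46.8 CPM in the superficial zone and did not pass (-0.73 ± 0.30, adjusted p = 0.11). Its lowest superficial zone value, 8.56 CPM, was that of OA superficial zone 1, and without this library and control condylar cartilage 3 it passed (-0.98 ± 0.23, adjusted p = 0.0094).

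IRX5 (ENSOCUG00000003240), an Iroquois factor whose human mutations alter the face and skull, was higher in the condylar cartilage. It was at 16.4, 20.2 and 29.8 CPM in OA condylar cartilage and at 37.7, 50.5 and 26.8 CPM in control condylar cartilage. In the superficial zone it was at 15.0, 9.51 and 10.3 CPM in OA and at 3.01, 3.82 and 6.71 CPM in control, so the zones did not overlap but came close in OA. The log2 fold change was 2.02 ± 0.31 (adjusted p = 0.0016). IRX6, its direct neighbour in the RefSeq gene order (assembly mOryCun1.1), was at 5.41 to 12 CPM in the condylar cartilage, at 8.69 CPM in OA superficial zone 1 and at 0.557 to 2.06 CPM in the other superficial zone libraries (1.36 ± 0.48, adjusted p = 0.073). Without OA superficial zone 1 and control condylar cartilage 3 it passed (1.96 ± 0.42, adjusted p = 0.0059), and both limma-voom and DESeq2 called it with all samples, as did scaling by library totals only.

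**Figure D2:**
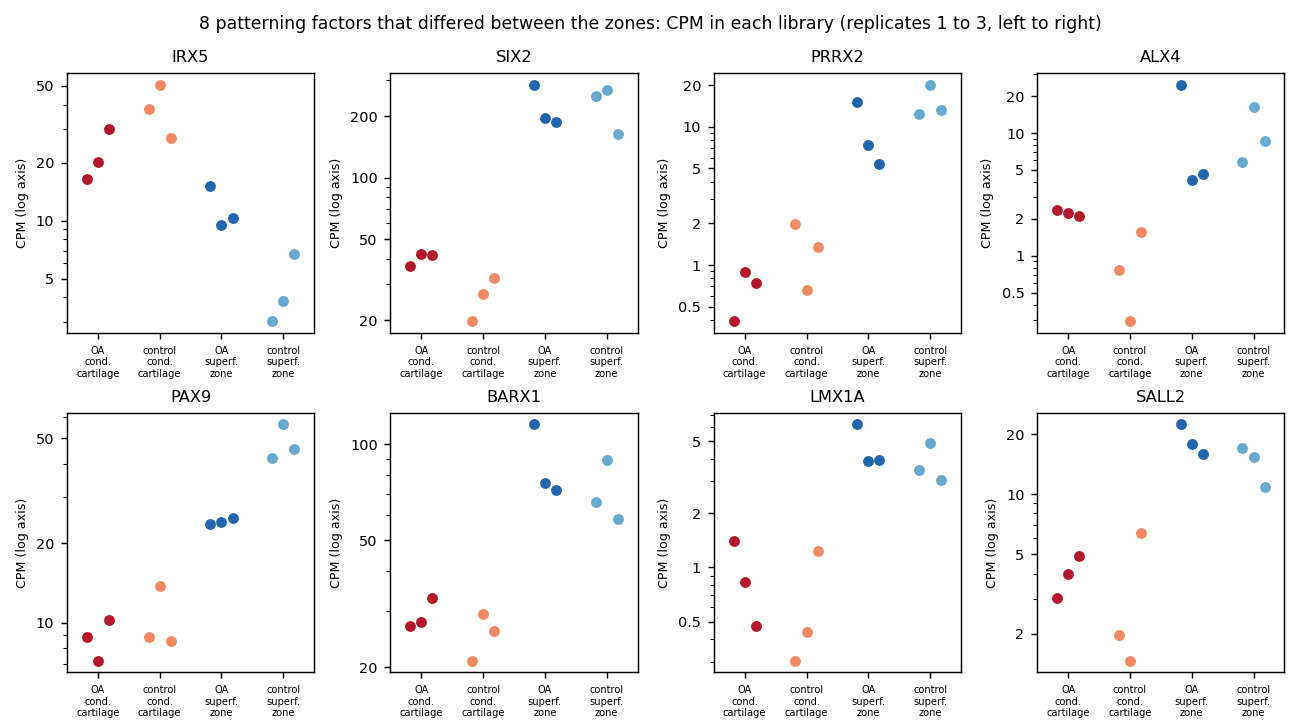
CPM (log axis) of 8 patterning factors in each library, by group, with replicates 1 to 3 from left to right in each group. IRX5 sits higher in the 6 condylar cartilage libraries (red tones) than in the 6 superficial zone libraries (blue tones), and the other genes sit lower, with no overlap between the zones in any of the 8.

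The arch-patterning DLX genes did not move as a block. DLX3, a factor of tooth, hair and bone, was at 28.2 to 65.6 CPM in the condylar cartilage and at 7.18 to 28.6 CPM in the superficial zone (log2 fold change 1.25 ± 0.31, adjusted p = 0.019). DLX5 was at 43.2 to 71.9 CPM and at 69.1 to 103 CPM in these zones (-0.52 ± 0.20, adjusted p = 0.094), and DLX6 at 3.5 to 9.97 CPM and at 6.21 to 22.0 CPM (-0.85 ± 0.37, adjusted p = 0.13). DLX5 and DLX6 are direct neighbours in the RefSeq order, as are DLX3 and DLX4, but DLX4 had a log2 fold change of only 0.47 ± 0.26 (adjusted p = 0.24). The ratio of DLX5 to DLX3 in TPM was 0.436 to 0.963 in the condylar cartilage and 0.744 in OA superficial zone 1, against 2.22 to 6.35 in the other 5 superficial zone libraries. MSX2, a factor of skull growth, was at 0.785 to 1.83 CPM in the condylar cartilage and at 2.52 to 4.96 CPM in the superficial zone (-1.46 ± 0.38, adjusted p = 0.021). DLX1 had a log2 fold change of -1.15 ± 0.38 (adjusted p = 0.060), and DESeq2 and limma-voom both called it with all samples. DLX1, DLX5 and DLX6 passed without control condylar cartilage 3 and OA superficial zone 1: DLX1 then had -1.63 ± 0.28 (adjusted p = 0.0018), DLX5 -0.59 ± 0.18 (0.037) and DLX6 -1.08 ± 0.34 (0.040). Whether reads were counted by strand is not given in the sources used here, so reads of a gene and of an antisense transcript over it, as are known in the DLX and HOX clusters of other mammals, cannot be told apart.

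Of the 6 tested PBX and MEIS genes, which bind DNA with other homeodomain proteins, only MEIS3 passed between zones in edgeR with all samples. DESeq2 and limma-voom also called MEIS2. PBX2 and PBX3 had log2 fold changes of -0.15 ± 0.22 and -0.31 ± 0.28. MEIS3 was lower in the condylar cartilage, at 1.05 to 2.02 CPM, against 2.45 to 8.14 CPM in the superficial zone (-1.57 ± 0.40, adjusted p = 0.020). MEIS2 had a log2 fold change of -1.62 ± 0.54 (adjusted p = 0.060; -2.29 ± 0.52 and 0.0084 without control condylar cartilage 3 and OA superficial zone 1) and MEIS1 of -0.17 ± 0.46 (adjusted p = 0.83). EMX2, known from forebrain, kidney and shoulder girdle, was at 0.112 to 1.01 CPM in the condylar cartilage and at 0.966 to 2.33 CPM in the superficial zone (-1.71 ± 0.48, adjusted p = 0.032). None of the 4 T-box genes passed in edgeR with all samples, although all 4 were negative. Limma-voom called TBX15 for the average, and TBX15 and TBX2 in control joints. TBX18 was at 37.7 to 57.6 CPM in the condylar cartilage and at 59.1 to 88.1 CPM in the superficial zone (-0.53 ± 0.21, adjusted p = 0.11), and it passed without control condylar cartilage 3 and OA superficial zone 1 (-0.55 ± 0.18, adjusted p = 0.048). TBX2, which represses transcription in many embryonic organs, had -0.55 ± 0.27 (adjusted p = 0.18). TBX6, known from the embryonic somites, had -1.03 ± 0.38 (adjusted p = 0.082), and -0.56 ± 0.35 (0.29) without the same 2 libraries. BARX2 and NKX3-2 had zone differences of -0.81 ± 0.56 and -0.70 ± 0.34 and did not pass either.

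Of the 16 calls, 10 passed under all 20 alternatives tried, among them IRX5, SIX2, PRRX2, ALX4, PAX9, BARX1, LMX1A and SALL2. Of the other 6, SATB1 was lost only in limma-voom. DLX3, MSX2, MEIS3, EMX2 and PRRX1 were lost without OA condylar cartilage 3, which left the summed pair as the only sample of that group. MSX2 was also lost without control superficial zone 1 (adjusted p = 0.051), and MEIS3 without control superficial zone 2 (0.057). MEIS3 was lost as well without OA superficial zone 1, which likewise left 1 sample in its group. EMX2 was also lost without control condylar cartilage 1 (0.068) or 2 (0.066) or control superficial zone 1 (0.072) or 2 (0.062), and in limma-voom (0.051). PRRX1 was also lost without control condylar cartilage 1 (0.088) or 2 (0.053) or any 1 of the control superficial zone libraries (0.067, 0.083 and 0.072), and with scaling by library totals only (0.068).

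Within control joints alone, 13 of the 38 members passed between the zones, or 34.2%, against 7.49% of all genes. Among them, IRX5 (log2 fold change 3.09 ± 0.41), IRX6 (2.51 ± 0.64) and DLX3 (1.95 ± 0.40) were higher in the condylar cartilage. SIX2 (-3.11 ± 0.33), PRRX2 (-3.58 ± 0.51), PAX9 (-2.20 ± 0.30), BARX1 (-1.49 ± 0.30), ALX4 (-3.58 ± 0.76), SALL2 (-2.14 ± 0.51), LMX1A (-2.51 ± 0.62) and PRRX1 (-1.48 ± 0.38) were lower. Among all genes 3.22% were higher and 4.27% were lower. The calls of IRX5, SIX2, PRRX2 and PAX9 passed under all 21 alternatives. In all, 8 calls were each lost without at least 1 library. Without control superficial zone 2, adjusted p was 0.064 for ALX4, 0.055 for BARX1, 0.054 for DLX3, 0.092 for IRX6, 0.12 for LMX1A, 0.13 for PRRX1 and 0.085 for SALL2. Without control condylar cartilage 1, it was 0.069 for ALX4, 0.071 for BARX1, 0.087 for IRX6, 0.12 for LMX1A, 0.16 for PRRX1 and 0.12 for SALL2. Leaving out control condylar cartilage 2, which ended 4 calls, gave 0.051 for ALX4, 0.11 for LMX1A, 0.078 for PRRX1 and 0.075 for SALL2. Leaving out control superficial zone 1 or 3 gave 0.12 or 0.088 for IRX6, 0.065 or 0.056 for LMX1A and 0.087 or 0.099 for PRRX1, and leaving out the first of them gave 0.081 for SALL2. IRX6 and PRRX1 were also lost without control condylar cartilage 3 (0.071 and 0.076) and without OA condylar cartilage 3 (0.057 and 0.063).

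Within OA joints alone, 6 of the 38 passed, or 15.8%, against 6.48% of all genes, and all 6 were among the 13 of the control joints. SIX2 (log2 fold change -2.55 ± 0.39), PRRX2 (-3.93 ± 0.62), PAX9 (-1.40 ± 0.35) and BARX1 (-1.65 ± 0.36) were lower in the condylar cartilage. Among all genes 2.38% were higher and 4.1% were lower. With 2 OA samples a zone these calls were less firm, and each was lost under at least 1 alternative. With only the OA samples in the fit none passed (PRRX2 and SIX2 then had adjusted p of 0.058 and 0.065). Without OA condylar cartilage 3, which left the summed pair as the only sample of that group, SIX2, PRRX2, PAX9 and BARX1 were lost. BARX1 was also lost without OA superficial zone 1, which left 1 sample there too, with scaling by library totals only (adjusted p = 0.052) and in limma-voom (0.16). SIX2 was also lost in limma-voom (0.053). PAX9 was lost in limma-voom (0.22), with scaling by library totals only (0.13) and without control condylar cartilage 1 (0.069) or any 1 of the control superficial zone libraries (0.072, 0.076 and 0.082).

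The sign of the zone difference was the same in OA and in control joints for 34 of the 38 members (89.5%), against 68.4% of all genes tested. The plot of the zone difference sets both estimates of 33 members side by side. With all samples they lay close together in genes such as TBX2, BARX1, SALL2 and LMX1A. They were far apart in BARX2 (-2.59 ± 0.85 in OA joints and 0.98 ± 0.75 in control joints) and in IRX5, IRX6 and HOXD9. The last 3 had log2 fold changes of 0.95 ± 0.47, 0.21 ± 0.72 and 0.15 ± 0.78 in OA joints. In control joints these were 3.09 ± 0.41, 2.51 ± 0.64 and 2.51 ± 0.73. Without OA superficial zone 1 and control condylar cartilage 3, IRX6 had 1.71 ± 0.65 in OA joints and 2.21 ± 0.48 in control joints, and IRX5 had 1.31 ± 0.48 and 3.30 ± 0.36. The OA estimate minus the control estimate was then 0.79 ± 0.41 for TBX2, 1.11 ± 0.54 for SALL2 and 1.07 ± 0.89 for LMX1A. For BARX1 it was 0.22 ± 0.41. The test of that change between OA and control did not pass for any of them, as described with the OA comparisons.

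**Figure D3:**
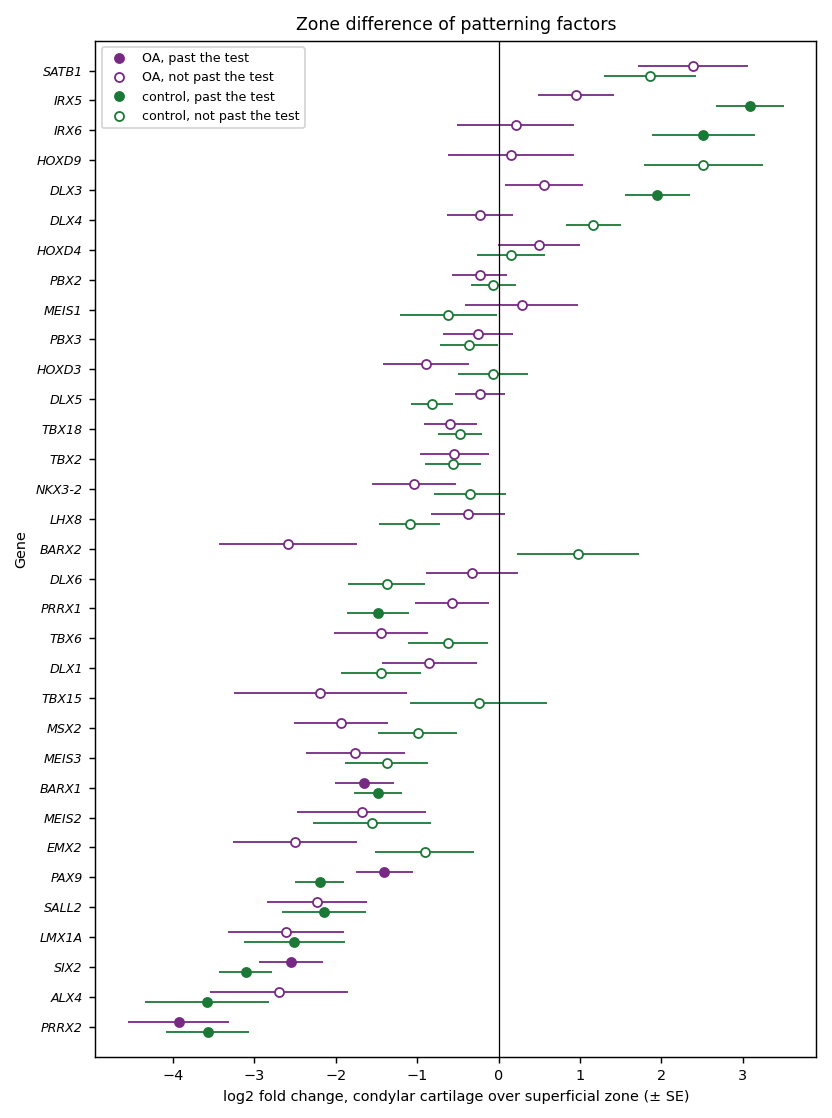
Log2 fold change of 33 patterning factors, condylar cartilage over superficial zone, with SE bars, in OA joints (purple) and control joints (green). Genes are ordered by the average of both estimates, filled circles passed the test, and HOXA5 is left out because it had 0 counts in 1 group. Most points lie left of 0, from PRRX2 at the bottom, while IRX5 near the top lies at 0.95 in OA and 3.09 in control.

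The second question was whether OA changed these genes within a zone. No member passed in the condylar cartilage, where 0.866% of all genes passed. No member passed in the superficial zone either, where 0.0208% of all genes passed, and none had a different OA effect in the 2 zones, where no gene of the whole table passed. At an unadjusted p under 0.05 in edgeR there were 3 members in the condylar cartilage (7.89%, against 9.25% of all genes), 6 in the superficial zone (15.8%, against 11.1%) and 6 for the difference between zones (15.8%, against 8.76%). DESeq2 called none of the members in these 3 comparisons. Limma-voom with sample weights called 4 in the condylar cartilage (DLX4, HOXA5, MEIS1 and SIX2), or 10.5%, against 10.7% of all genes, and none in the other 2. The median log2 fold change of OA over control was 0.08 for the members in the condylar cartilage, against -0.03 for all genes, and 0.26 in the superficial zone, against 0.05. A missing call does not show that a gene was the same in OA and in control.

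In the condylar cartilage the smallest p among the members belonged to HOXA5 (ENSOCUG00000029580), a HOX gene of the neck and thorax that is also active in blood-forming cells. It had 17, 21 and 14 counts in OA condylar cartilage and 0, 0 and 0 counts in control condylar cartilage. The mean was 0.981 CPM in OA, at least 9.53-fold higher than in control when 3 counts over the control group are taken as the floor, but the test did not pass (edgeR adjusted p = 0.16). In the superficial zone it had 4, 2 and 0 counts in OA and 0, 0 and 1 in control. HOXA5 met the minimum count only through OA condylar cartilage, the group where it was high. Its place in this test was therefore set by that group, and its rank by p adds no separate evidence. MEIS1, a HOX cofactor that is needed in blood stem cells in mouse, was at 8.99, 8.63 and 9.29 CPM in OA condylar cartilage and at 1.52, 2.12 and 4.37 CPM in control condylar cartilage. The groups did not overlap, as in 29.8% of all genes in this comparison, and the log2 fold change was 1.75 ± 0.64 (adjusted p = 0.39). In the superficial zone MEIS1 was at 2.48, 11.7 and 12.3 CPM in OA and at 2.45, 4.13 and 5.77 CPM in control. DLX4 was at 3.29, 3.43 and 3.93 CPM in OA condylar cartilage and at 7.15, 8.28 and 7.96 CPM in control condylar cartilage (log2 fold change -1.10 ± 0.38, adjusted p = 0.33).

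Blood and marrow markers stood higher in the same OA libraries. The 9 measured of 11 neutrophil and marrow genes summed to 1936, 1914 and 583 CPM in OA condylar cartilage and to 2.13, 0.879 and 12.8 CPM in control condylar cartilage, where MMP8 was at 0 in all 3 libraries. The 8 measured of 10 erythroid genes summed to 1433, 1371 and 423 CPM in OA condylar cartilage and to 20.5, 13.3 and 53.8 CPM in control condylar cartilage. Within the OA group both lists were lower in library 3, where HOXA5 and MEIS1 were at 0.949 and 9.29 CPM, close to their values in libraries 1 and 2. SATB1 was at 6.37 CPM in that library, against 16.2 and 17.4 CPM in libraries 1 and 2. In OA superficial zone libraries 1, 2 and 3, MEIS1 was at 2.48, 11.7 and 12.3 CPM. There the neutrophil and marrow list summed to 196, 11.6 and 11.5 CPM and the erythroid list to 133, 21.1 and 20.4 CPM. The part of these cells in the values of HOXA5, MEIS1 and SATB1 was not tested.

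In the superficial zone the 3 smallest p-values belonged to IRX5, LHX8 and BARX2. IRX5 was at 15.0, 9.51 and 10.3 CPM in OA and at 3.01, 3.82 and 6.71 CPM in control, without overlap, as in 17.8% of all genes in this comparison (log2 fold change 1.46 ± 0.43, adjusted p = 0.25). LHX8 was at 8.56, 25.4 and 20.4 CPM in OA and at 42.6, 46.8 and 37.6 CPM in control, also without overlap (-1.41 ± 0.43, adjusted p = 0.27; -0.93 ± 0.36 and 0.28 without OA superficial zone 1 and control condylar cartilage 3). BARX2, a relative of BARX1 known from muscle and cartilage of the mouse limb, was at 2.35, 1.17 and 1.40 CPM in OA and at 0.334, 0.306 and 0.315 CPM in control (2.46 ± 0.78, adjusted p = 0.28). The other 3 members with unadjusted p under 0.05 also failed the adjusted test. NKX3-2, which sets the position of the jaw joint in fish and chick and holds back cartilage maturation, had a log2 fold change of 1.47 ± 0.47 (adjusted p = 0.29). PAX9 had -0.99 ± 0.33 (adjusted p = 0.31), with 23.6 to 25.0 CPM in OA and 42.2 to 56.4 CPM in control. IRX6 had 1.74 ± 0.68 (adjusted p = 0.38), but its OA value came largely from OA superficial zone 1, at 8.69 CPM, against 1.69 and 1.99 CPM in the other OA libraries, and it was 0.24 ± 0.59 without the same 2 libraries.

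The interaction contrast, the OA effect in the condylar cartilage minus that in the superficial zone, had its smallest p among the members for IRX5 (-2.13 ± 0.61, adjusted p = 0.41), BARX2 (-3.57 ± 1.13, adjusted p = 0.45) and DLX4 (-1.39 ± 0.53, adjusted p = 0.51). IRX6 (-2.30 ± 0.96), DLX3 (-1.39 ± 0.62) and HOXD9 (-2.36 ± 1.07) were the other 3 with unadjusted p under 0.05. Without OA superficial zone 1 and control condylar cartilage 3 the contrast was -0.50 ± 0.77 for IRX6, -0.65 ± 0.58 for DLX3 and -1.99 ± 0.56 for IRX5. It was -1.13 ± 0.53 for DLX4, -1.93 ± 1.20 for HOXD9 and -2.96 ± 1.25 for BARX2. These 6 stayed negative, while ALX4 and SIX2 had positive contrasts in that fit, 3.45 ± 0.89 and 1.07 ± 0.42. With all samples, all 6 were negative, with the OA libraries above control in the superficial zone and below control in the condylar cartilage on the fitted scale, and none passed. IRX5, for instance, averaged 23.5 ± 8.01 CPM in OA (SD, n = 2) and 37.5 ± 11.6 CPM in control condylar cartilage (n = 3), against 12.2 ± 3.54 CPM in OA and 4.42 ± 1.91 CPM in the control superficial zone.

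**Figure D4:**
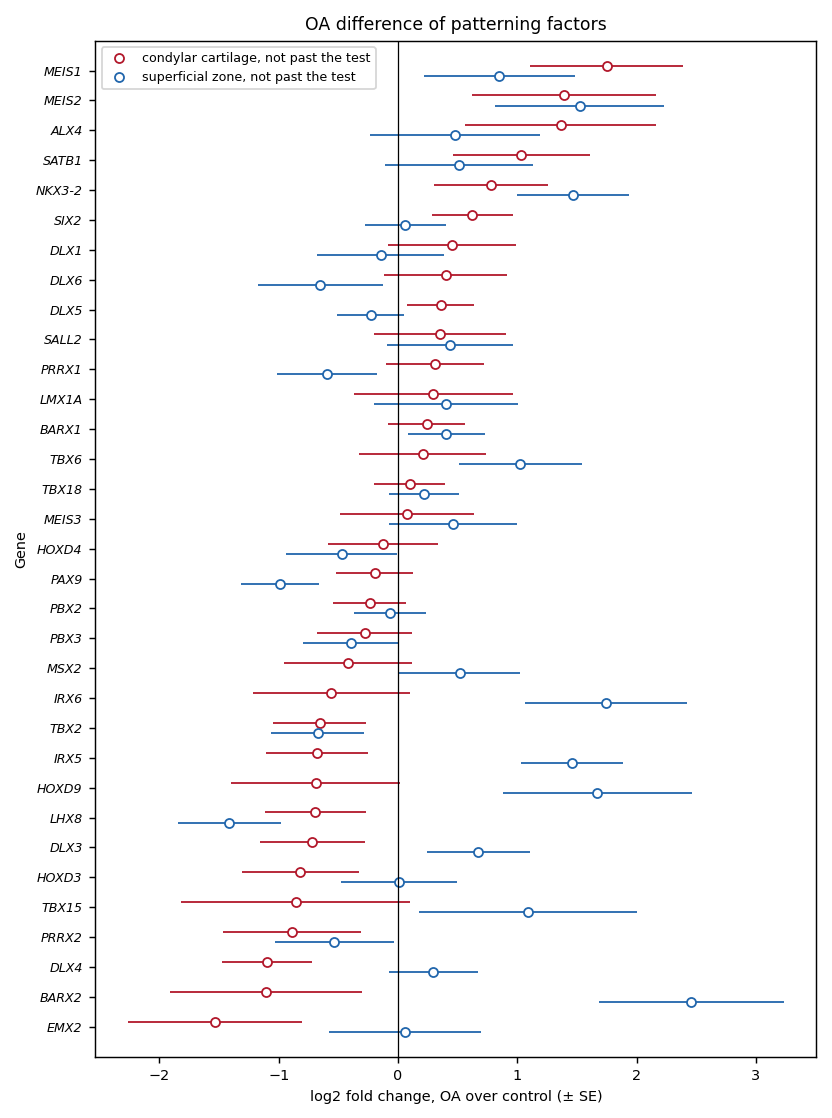
Log2 fold change of 33 patterning factors, OA over control, with SE bars, in the condylar cartilage (red) and the superficial zone (blue), ordered by the condylar cartilage value. HOXA5 is left out because control condylar cartilage had 0 counts. All circles are open because no member passed the test, and most bars reach close to or across 0.

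There were 4 members with OA libraries that did not overlap the control libraries in either zone, in the same direction in both, and they are named here because of these values. MEIS2 and NKX3-2 lay above control (5.26% of the 38, against 2.77% of all genes), and LHX8 and TBX2 lay below it (5.26%, against 1.3%). MEIS2 was at 1.73, 1.83 and 1.36 CPM in OA and at 0.456, 0.146 and 1.23 CPM in control condylar cartilage, and at 4.14, 5.72 and 6.14 CPM in OA and 1.22, 1.15 and 2.94 CPM in the control superficial zone. TBX2 was at 27.1, 26.8 and 31.4 CPM in OA and at 37.1, 33.3 and 67.6 CPM in control condylar cartilage, and at 52.2, 32.2 and 34.0 CPM in OA and 57.4, 89.7 and 56.6 CPM in the control superficial zone. With all samples the log2 fold changes of both genes were of like size in the 2 zones. In the condylar cartilage and the superficial zone they were 1.39 ± 0.77 and 1.52 ± 0.71 for MEIS2. For TBX2 they were -0.66 ± 0.39 and -0.67 ± 0.39, and none of these passed (edgeR adjusted p from 0.46 to 0.70). Without control condylar cartilage 3 and OA superficial zone 1 the sizes were less alike, at 2.55 ± 0.80 and 1.71 ± 0.64 for MEIS2. For TBX2 they were then -0.28 ± 0.27 and -1.07 ± 0.32.

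The 5 HOX members were low throughout. HOXD4, the highest, was at 2.21 to 8.64 CPM in the 12 libraries with no clear order of groups, and its zone difference was 0.32 ± 0.33 (adjusted p = 0.51). HOXD3 had a zone difference of -0.48 ± 0.34 (adjusted p = 0.35). HOXD9 was at 0.614, 0.443 and 1.15 CPM in OA condylar cartilage and at 1.52, 0.732 and 1.79 CPM in control condylar cartilage, against 0.828, 0.584 and 0.755 CPM in OA and 0.334, 0.153 and 0.210 CPM in the control superficial zone. Its zone difference was 1.33 ± 0.54 (adjusted p = 0.11). HOXD1, at 0.111 to 1.23 CPM, and HOXA5 completed the set. Other HOX genes were not analysed here.

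The values of TBX15 turned on 2 libraries. This T-box factor, known in mouse from the head and shoulder skeleton and from fast muscle fibres, was at 6.59, 9.08 and 7.73 CPM in OA condylar cartilage and at 3.19, 2.71 and 36.5 CPM in control condylar cartilage. Superficial zone values were 14.1, 56.4 and 56.5 CPM in OA and 17.4, 11.8 and 21.0 CPM in control. With all samples its zone difference was -1.22 ± 0.67 (adjusted p = 0.23), and its OA difference was -0.86 ± 0.96 in the condylar cartilage and 1.09 ± 0.92 in the superficial zone, none of which passed in edgeR. Limma-voom called the zone difference with all samples. Without control condylar cartilage 3 and OA superficial zone 1 the zone difference was -2.66 ± 0.25 (adjusted p = 4.1e-05). The OA difference was then 1.40 ± 0.35 in the condylar cartilage (adjusted p = 0.046) and 1.72 ± 0.32 in the superficial zone (adjusted p = 0.029), where the near-duplicate pair was the only OA sample left and was taken to vary like the other groups. The 9 measured of 16 skeletal muscle genes were, like TBX15, highest in control condylar cartilage 3 and OA superficial zone 2 and 3. They summed to 25.5, 24.2 and 3589 CPM in control condylar cartilage and to 41.8 to 90.4 CPM in OA condylar cartilage. In the superficial zone they summed to 432, 2163 and 2145 CPM in OA and to 24.0 to 245 CPM in control. The match was not complete. In OA superficial zone 1 the muscle sum was above all control superficial zone libraries, while TBX15 lay within their range. The part of muscle in the TBX15 values was not tested.

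**Figure D5:**
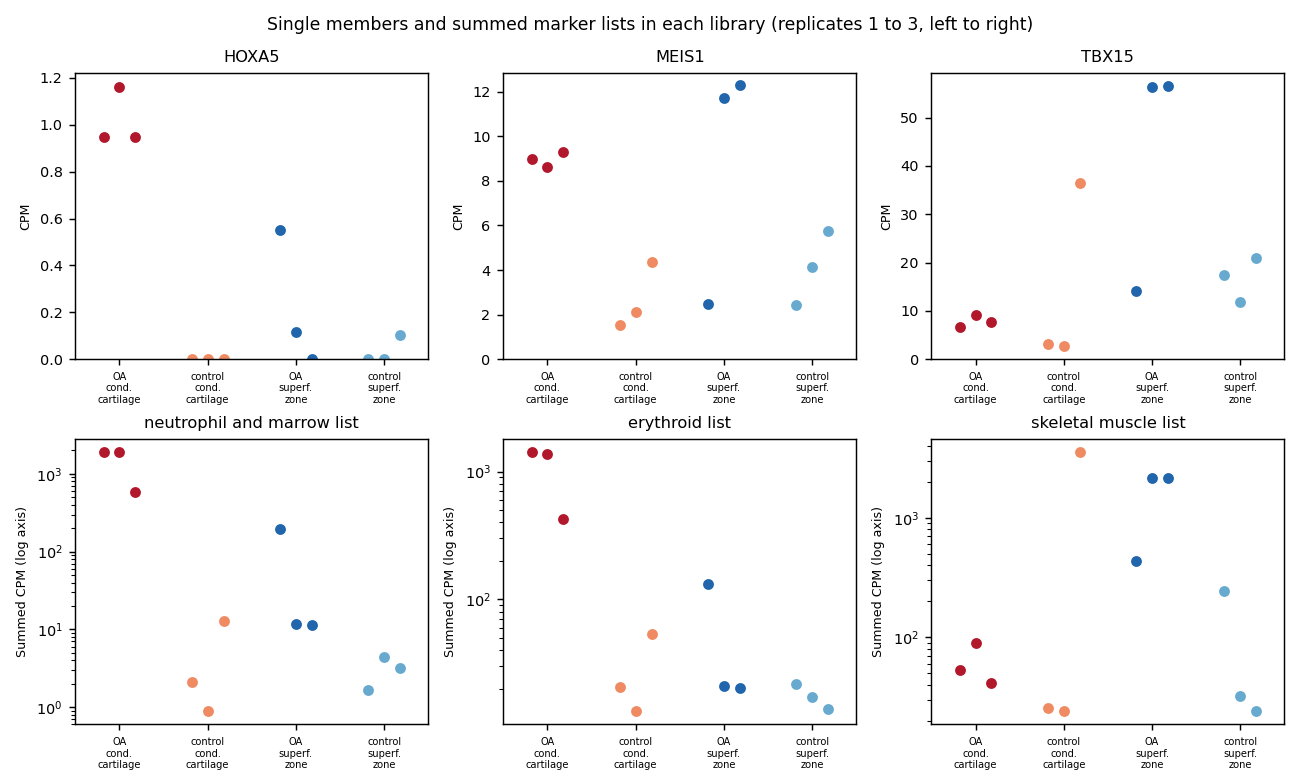
CPM of HOXA5, MEIS1 and TBX15 (upper row, linear axes from 0) and summed CPM of the neutrophil and marrow, erythroid and skeletal muscle lists (lower row, log axes) in each library, by group, with replicates 1 to 3 from left to right. HOXA5 is above 0 in the 3 OA condylar cartilage libraries and at 0 in the 3 control ones, and TBX15 is high in control condylar cartilage 3 and OA superficial zone 2 and 3, where the muscle list is also high.

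Leaving out control condylar cartilage 3 and OA superficial zone 1 also raised the number of members called between zones, and with these libraries out all 40 members and 14609 genes met the minimum count. The OA superficial zone was then 1 sample, the near-duplicate pair, so calls in OA joints and for the average rest on 1 sample in that group. For the average, 26 members passed (65%, against 23.5% of all genes). In control joints 22 passed (55%, against 16.8%), and in OA joints 12 passed (30%, against 12%). No call was lost. The calls gained in control joints included DLX1 (-2.09 ± 0.38, adjusted p = 0.0032), DLX4 (1.16 ± 0.33, 0.032), DLX5 (-0.87 ± 0.23, 0.023), LHX8 (-1.10 ± 0.29, 0.023), MEIS2 (-2.71 ± 0.78, 0.037), MEIS3 (-1.61 ± 0.48, 0.044), TBX2 (-0.94 ± 0.25, 0.026) and TBX15 (-2.51 ± 0.34, 5.1e-04). In OA joints they were EMX2 (-2.89 ± 0.75), LMX1A (-2.19 ± 0.61), MSX2 (-2.08 ± 0.52), PRRX1 (-1.09 ± 0.31), SALL2 (-1.98 ± 0.38) and TBX15 (-2.82 ± 0.36). For OA against control, MEIS1 passed in the condylar cartilage (2.26 ± 0.45, adjusted p = 0.018) beside TBX15, where 4.57% of all genes passed, and TBX15 alone passed in the superficial zone, where 1.95% did. No member had a different OA effect in the 2 zones, where 0.664% of all genes passed.

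A list of 51 partner and arch-patterning genes outside these families was read beside them, of which 37 were measured and tested. Between zones, averaged over OA and control, 3 were higher in the condylar cartilage (8.11%, against 6.84% of all genes) and 10 were lower (27%, against 10.9%), with a median log2 fold change of -0.40 against 0.03 for all genes. MEF2C, which acts downstream of endothelin signalling in the mandibular arch and in cartilage maturation, was at 879 to 1635 CPM in the condylar cartilage and at 182 to 299 CPM in the superficial zone (2.46 ± 0.27, adjusted p = 2.8e-04). RUNX2, the master factor of bone formation, was also higher (1.08 ± 0.25, adjusted p = 0.012), and so was the retinoic acid receptor gene RARB (0.93 ± 0.22, adjusted p = 0.015). Goosecoid (GSC), a homeobox factor of the mandibular arch, was lower, with 31.2 to 49.4 CPM in the condylar cartilage and 93.5 to 175 CPM in the superficial zone (-1.63 ± 0.24, adjusted p = 0.0013). EYA2, a transcriptional cofactor, was lower (-0.98 ± 0.28, adjusted p = 0.033), as were HOPX (-2.85 ± 0.37), MEOX1 (-2.51 ± 0.51), MEOX2 (-1.87 ± 0.30), OSR1 (-1.80 ± 0.54), OSR2 (-2.30 ± 0.46), TSHZ2 (-1.58 ± 0.40), NR2F2 (-1.19 ± 0.25) and ZFHX3 (-0.79 ± 0.22). In control joints alone 1 was higher (2.7%, against 3.22%) and 4 were lower (10.8%, against 4.27%), among them GLI1, a target of hedgehog signalling (-1.58 ± 0.40, adjusted p = 0.033), and in OA joints 2 were higher (5.41%, against 2.38%) and 6 were lower (16.2%, against 4.1%). None of the 37 passed for OA in either zone or for the difference between zones.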

How the data were processed

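The deposited table of the authors gives 3 kinds of value for 14621 rabbit genes in 12 libraries. They are estimated counts in whole numbers, TPM, and a feature length, per the file headers. The headers call the counts both raw and normalised; they were taken as raw because their totals differ and their median-of-ratios size factors run from 0.556 to 1.57, and if they had been scaled before deposit, every CPM and test here would carry that scaling. Upstream, per the submitters' processing notes, stood the OryCun2.0 build with STAR 2.7.9a, Salmon 1.1.0, StringTie 2.1.0, Trim Galore 0.6.7, MultiQC 1.13 and DESeq2 1.26.0; the role of each is not given in the sources used here. Libraries were made after ribosomal RNA depletion with a directional kit, per the labels' protocols. In every value with a count of 10 or more, the deposited TPM matched count over length, rescaled to the library, within 1%. A further 12 value columns, of log2 TPM, were not used.

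The estimated counts, used as deposited, went into edgeR 4.0.16 under R 4.3.3 (TMM, filterByExpr with a minimum count of 10, quasi-likelihood F test) in 1 model of 4 groups and 10 samples. In each of 6 comparisons p was adjusted by Benjamini-Hochberg over 14438 genes, and 0.05 was the threshold. The SE is the absolute log2 fold change over the square root of F. CPM used TMM-scaled totals; means ± SD are over samples. The fit was tested on simulated data. Alternatives used DESeq2 1.42.0, limma 3.58.1 (voom), other scalings, samples and filters. The members, lists and alternatives were chosen with earlier results of these data known. Named with values were members past the test in any comparison, the 3 of smallest p in each, the 10 of highest mean TPM, a jaw mesenchyme set and the HOX genes; a few members that the rule names are not reported here, though they stay in the counts. Of that set, MSX1, ALX1, HAND2, TWIST1, TWIST2 and PITX1 were not analysed here. Gene order came from a RefSeq table of another assembly (38 of 40 members matched), so no coordinates are given.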

Additional observations from a re-analysis of the deposited data

How the results depend on the processing

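The zone difference of the members passed or missed the test in numbers that moved with the choice of samples and tool. No log2 fold change that had passed in edgeR with all samples changed sign under any alternative. One that had not passed did change sign, the OA difference of TBX15 in the condylar cartilage. It was negative with all samples and 1.40 ± 0.35 without control condylar cartilage 3 and OA superficial zone 1. In control joints (13 members called) limma-voom with sample weights called 23, and leaving out both control condylar cartilage 3 and OA superficial zone 1 gave 22. In OA joints (6 called) the count was 16 with 12 separate libraries, 11 in DESeq2, 3 with scaling by library totals only (1 higher and 2 lower, against 1 and 5), 2 in limma-voom, 0 with only the samples of the groups compared and 12 without both libraries. For the average of both (16 called) it was 25 with 12 separate libraries and 26 without both. For OA against control, limma-voom called 4 members in the condylar cartilage, and leaving out both libraries gave 2 there and 1 in the superficial zone. The cause of these shifts was not tested. Without OA superficial zone 1 or OA condylar cartilage 3, the group of that library keeps 1 sample, the summed pair. With scaling by library totals, the middle log2 fold change over the whole table became 0.23 for OA in the condylar cartilage, -0.24 for OA in the superficial zone, 0.50 for the difference between zones, -0.25 between zones in control and 0.25 in OA, against -0.03, 0.05, -0.02, 0.02 and 0.01 with TMM. Leaving out each library in turn gave 5 to 17 members in control joints, 1 to 12 in OA joints and 11 to 21 for the average, and 0 for OA against control in either zone and for the difference between zones.

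The replicate numbers of the titles were also used as a block with 12 separate libraries. This replicate block gave 18 members in control joints, 13 in OA joints and 25 for the average, against 17, 16 and 25 without it. Of 18 pairs of same-numbered libraries, 7 had deviations with a correlation over 0.1, and the range was -0.262 to 0.291. Between the zones of OA joints it was 0.291, -0.115 and 0.288 for replicates 1, 2 and 3, and in control joints 0.027, 0.212 and -0.226. The near-duplicate libraries bear on these deviations, so they cannot settle whether the numbers pair the samples. The numbers were not taken to pair them.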

Other observations

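SALL1, a zinc finger factor of limb, ear and kidney development, was named only through the RefSeq table (ENSOCUG00000004364) and so stood outside the 40 members. It was at 8.65, 6.59 and 5.42 CPM in OA condylar cartilage and at 7.30, 3.59 and 21.1 CPM in control condylar cartilage. In the superficial zone it was at 4.14, 0.759 and 0.539 CPM in OA and at 0.445, 0.153 and 0.210 CPM in control. Its highest superficial zone value belonged to OA superficial zone 1, the library with COL2A1 at 51233 CPM, and was above the lowest condylar cartilage value.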
